A study of Mus musculus with 12 samples.

Results

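Solute carriers are membrane proteins that move sugars, amino acids, nucleotide sugars, vitamins, metals and other ions across the cell surface and the membranes of organelles. The 178 genes described here were all rows of the gene table whose symbol begins with Slc and a number and which had at least 1 FPKM in 3 or more of 12 libraries, with Slc12a2 and Slc39a8 left out. FPKM counts fragments per kilobase of exon, scaled to the mapped fragments of the library, so levels can be compared between genes. The table listed 11736 genes, 10325 of which passed the same filter on level. Of 199 listed carriers, 21 stayed below the filter. Slc13a2, Slc19a2, Slc44a4 and Slc52a3 were just outside it, with 2 libraries at 1 FPKM, and Slc11a1 and Slc22a15 were just inside it, with 3.

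RNA of the lacrimal gland, the source of the watery layer of tears, was sequenced in 4 groups of 3 libraries each. The groups were NOD mice aged 8 weeks, NOD mice aged 12 weeks, mice labelled ESS, and control mice. NOD is an inbred strain known for spontaneous autoimmune diabetes and for inflamed tear and salivary glands. The series presents a mouse model of Sjögren's syndrome, an autoimmune disease of these glands, made with a lacrimal autoantigen. The study's design text calls the model LGSS while the sample labels read ESS, and the labels do not say that the names mean the same mice. The strain, sex and age of the ESS and control mice and the sex of the NOD mice are stated in none of the labels, so strain, sex, age and disease cannot be told apart in any comparison between these groups. Whether libraries are separate animals is not stated, and p-values therefore measure only the spread between these libraries.

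In a gland that secretes fluid and protein, carriers work at several sites. At the cell surface they take up amino acids, sugars, vitamins and metals, and those for bicarbonate, protons and chloride take part in fluid secretion. Family 35 brings nucleotide sugars into the Golgi and the endoplasmic reticulum (ER), where secreted proteins receive their glycans. Family 25 serves mainly the inner mitochondrial membrane, and family 16 moves lactate and related acids.

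ESS libraries 1 and 2 stood apart from all others. The 7 salivary gland markers summed to 14451 FPKM in the higher of them, against 31.7 FPKM in ESS library 3 and 0.897 to 32.1 FPKM in control. Leaving out both leaves only ESS library 3, so no number of calls in ESS is given without them. Lacrimal acinar markers were present in every library, with summed levels of 7049 to 7984 FPKM in NOD at 8 weeks, 7282 to 7526 FPKM in NOD at 12 weeks, 5541 to 7412 FPKM in ESS and 3522 to 4926 FPKM in control. Lcn11 alone made up most of each sum, with 5976 to 6821 FPKM in NOD at 8 weeks and 2185 to 3692 FPKM in control. Of the 6 acinar markers, 2 were higher and 2 lower at 8 weeks, and 1 was higher and 0 lower at 12 weeks. Macrophage markers summed to 92.7 to 100.3 FPKM in NOD at 8 weeks, 94.5 to 148 FPKM in NOD at 12 weeks, 199.7 to 336 FPKM in ESS and 152 to 259 FPKM in control, and 5 of 8 were lower at each NOD age. Plasma cell markers summed to 89.5 to 109 FPKM and 116 to 143 FPKM at the NOD ages, 58.0 to 71.2 FPKM in ESS and 53.4 to 57.2 FPKM in control, and 3 of 4 were higher at 8 weeks and 2 of 4 at 12 weeks. The part of these cells in the changes below was not tested. In bulk tissue, fewer cells of a type and less RNA per cell cannot be told apart.

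The carriers spanned a mean of 0.728 to 228 FPKM over the 12 libraries, with a median of 5.05 FPKM beside 4.84 FPKM over all genes that passed the filter. Of the 178, 146 had at least 1 FPKM in every library. The most abundant was Slc31a2, a copper carrier, with 201 to 249 FPKM in NOD at 8 weeks and 193 to 236 FPKM in control. Slc25a5, the adenine nucleotide exchanger of mitochondria, averaged 149.8 FPKM over all libraries, and its level is uncertain because a near-identical copy, Gm5560, could share its reads. Slc7a5, a light chain of the exchanger for large neutral amino acids, averaged 116 FPKM, and its heavy chain Slc3a2 averaged 75.5 FPKM. None of these 4 abundant carriers passed the test in NOD at 8 or 12 weeks against control. All 178 together made up 0.274% to 0.390% of the summed FPKM of a library.

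By summed level, mitochondrial carriers led, with 563 ± 24.1 FPKM in NOD at 8 weeks, 559 ± 33.4 FPKM in NOD at 12 weeks, 582 ± 15.2 FPKM in ESS and 589 ± 19.3 FPKM in control (SD, n = 3 each). Metal carriers followed, with 546 ± 49.9 FPKM, 527 ± 26.5 FPKM, 543 ± 5.16 FPKM and 512 ± 16.6 FPKM in the same order. Both sums overlapped between NOD and control. The 8 monocarboxylate and dicarboxylate carriers separated NOD, ESS and control without overlap, with sums of 33.1 to 38.2 FPKM in NOD at 8 weeks, 34.3 to 39.9 FPKM in NOD at 12 weeks, 41.2 to 51.0 FPKM in ESS and 56.8 to 63.0 FPKM in control. The NOD ages overlapped each other, and the lowest ESS sum was that of ESS library 3. The 3 lysosomal and vesicular carriers separated them too, in the other order. Their sums were 48.6 to 53.9 FPKM in NOD at 8 weeks, 45.8 to 53.4 FPKM in NOD at 12 weeks, 38.8 to 44.6 FPKM in ESS and 36.0 to 38.3 FPKM in control.

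In NOD glands at both ages, the sugar carrier Slc50a1, the peptide carrier Slc15a2, the choline carrier-like Slc44a3 and the heme carrier Slc48a1 were lower than in control glands. The glucose-6-phosphate carrier Slc37a1, the mitochondrial amino acid carrier Slc25a29, the ascorbate carrier Slc23a1 and the sialic acid exporter Slc17a5 were higher. By limma at an adjusted p of 0.05, 12 carriers were higher and 40 lower in NOD at 8 weeks than in control, and 15 were higher and 48 lower in NOD at 12 weeks. Of the carriers 29.2% were called at 8 weeks, beside 27.4% of all genes, and 35.4% at 12 weeks, beside 33.4% of all genes. On the FPKM as deposited these shares are near the background, so these counts show nothing about carriers as a class. All genes were called higher and lower in 5.30% and 22.1% of cases at 8 weeks, and in 5.52% and 27.8% at 12 weeks. Among them, 2 of the higher carriers at each age reached 1 FPKM in NOD libraries alone and 5 of the lower in ESS and control libraries alone, so the filter on level chose them by the groups in which they were high. The 2 ages share the control libraries and are not separate tests.

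The excess of lower calls depends on how the libraries are scaled. On the deposited scale the median gene had a log2 change of -0.15 at 8 weeks and -0.18 at 12 weeks. After quantile normalization 25 carriers were higher and 16 lower at 8 weeks, and 42 were higher and 20 lower at 12 weeks. Of all 10325 genes 1134 were then higher and 1265 lower at 8 weeks, and 1300 and 1347 at 12 weeks. With library medians centred the calls were 32 higher and 17 lower at 8 weeks and 44 higher and 18 lower at 12 weeks. For all genes they were 1266 and 1150 at 8 weeks and 1308 and 1241 at 12 weeks. After rescaling without the genes above 1000 FPKM 24 carriers were higher and 23 lower at 8 weeks and 43 higher and 21 lower at 12 weeks. For all genes the counts were 912 and 1397 at 8 weeks and 1180 and 1267 at 12 weeks. Whether carriers as a set differed from other genes under these scalings was not tested. Under all 4 scalings, 12 carriers were higher and 16 lower at 8 weeks, beside 5.20% and 11.0% of all genes, and 15 were higher and 15 lower at 12 weeks, beside 5.45% and 11.0%. Changes below are therefore log2 changes of FPKM + 1 relative to the median gene, a scale that understates the change of genes of low level. The SE and adjusted p beside them, for genes and transcripts, belong to the change on the deposited scale. They do not test the relative change. In NOD against control the tested change is larger for a fall and smaller for a rise than the relative change. A fall said to hold under all scalings is one of those called under all 4.

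**Figure D1:**
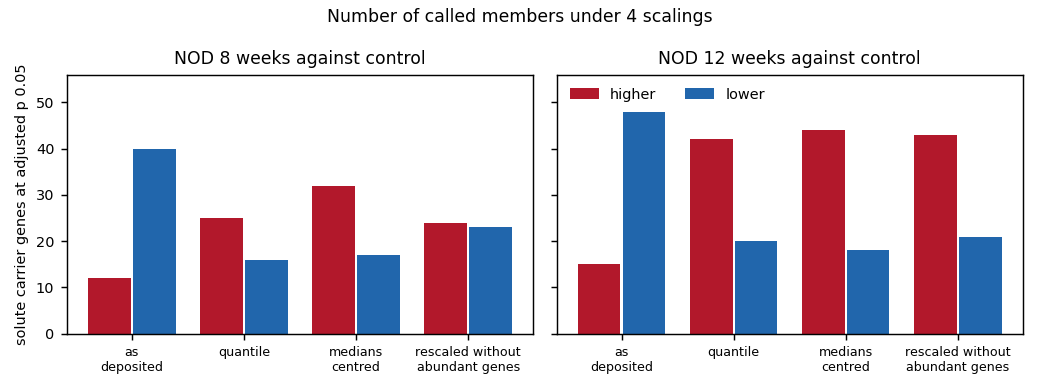
Number of solute carrier genes (y axis) past an adjusted p of 0.05 as higher and lower in NOD at 8 weeks and at 12 weeks against control, on the deposited scale and under 3 other scalings. On the deposited scale 15 were higher and 48 lower at 12 weeks, and after quantile normalization 42 were higher and 20 lower.

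**Figure D2:**
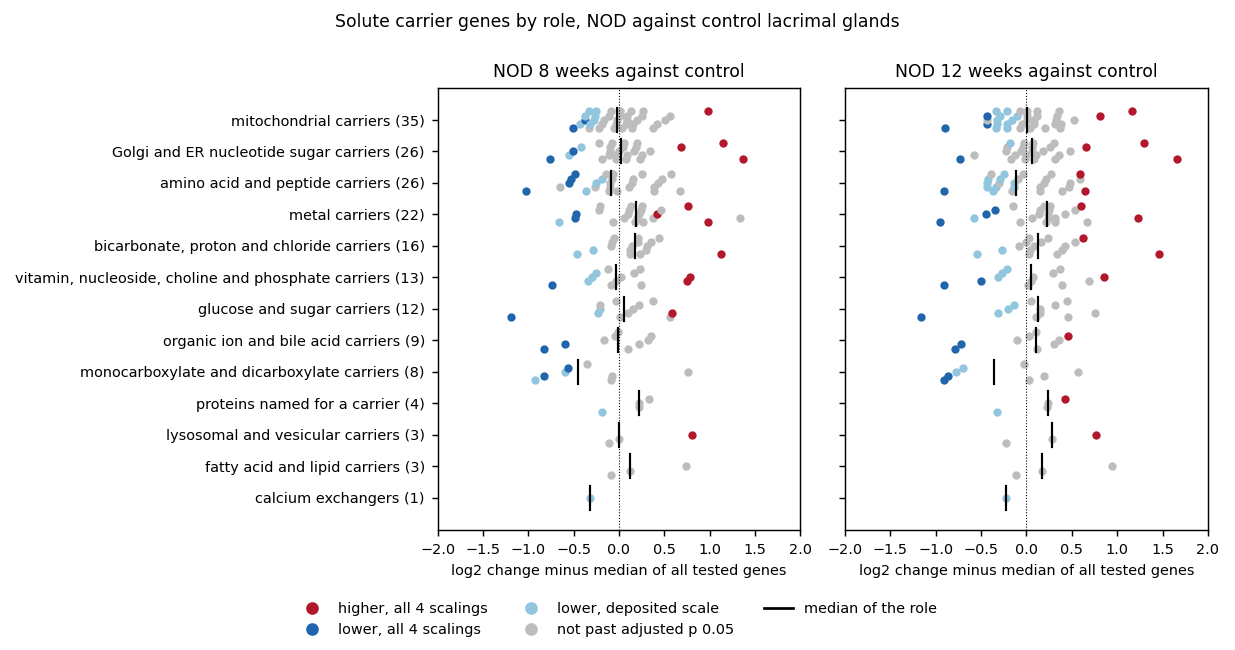
Log2 change minus the median of all tested genes (x axis) of each carrier, by role (rows), in NOD at 8 weeks and at 12 weeks against control. Each point is a gene, red where higher under all 4 scalings, dark blue where lower under all 4, light blue where lower on the deposited scale but not under all 4 and grey where not past the test, and the black bar is the median of the role. The monocarboxylate and dicarboxylate carriers have the lowest median at both ages, -0.45 at 8 weeks and -0.36 at 12 weeks.

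Of the 26 amino acid and peptide carriers, 0 were higher and 7 lower in NOD at 8 weeks, 4 of them under all scalings, and 2 were higher and 10 lower at 12 weeks, 1 of the falls under all scalings. The median of the role was -0.087 at 8 weeks and -0.11 at 12 weeks. Slc15a2, or PEPT2, takes up dipeptides and tripeptides together with protons. It had 7.24, 8.49 and 6.20 FPKM in NOD at 8 weeks, 7.85, 7.74 and 7.55 FPKM in NOD at 12 weeks, 14.5, 13.7 and 14.8 FPKM in ESS and 16.4, 18.8 and 17.7 FPKM in control. All 6 NOD libraries lay below all 6 others. Slc15a2 fell by 1.02 (SE 0.10, limma adjusted p = 9.04e-06) at 8 weeks and by 0.91 (SE 0.10, limma adjusted p = 1.43e-05) at 12 weeks, and no alternative setting ended either call.

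The transcript table splits Slc15a2, at chr16:36750178-36784962 on the minus strand of GRCm38, mainly into a long and a short form. By the GENCODE M21 annotation, which holds a later version of this gene than the files, the long form, Slc15a2-201, has 22 exons and 740 codons. The short form, Slc15a2-205, has 7 exons and 259 codons, shares 5 identical exons with the long form, and runs on into an intron of the long form.

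The short form had 3.74, 6.06 and 3.87 FPKM in NOD at 8 weeks, 4.65, 2.59 and 3.49 FPKM in NOD at 12 weeks, 40.8, 44.7 and 36.6 FPKM in ESS and 39.7, 51.9 and 31.2 FPKM in control. The highest NOD library was far below the lowest ESS or control library. The long form had 11.8, 13.7 and 10.1 FPKM in NOD at 8 weeks, 12.8, 13.1 and 12.5 FPKM in NOD at 12 weeks, 13.8, 10.7 and 16.1 FPKM in ESS and 16.5, 18.0 and 23.4 FPKM in control, and its ESS libraries overlapped those of NOD. The ratio of the short to the long form was 0.381 ± 0.0616 in NOD at 8 weeks, 0.280 ± 0.0828 in NOD at 12 weeks, 3.14 ± 0.971 in ESS and 2.21 ± 0.796 in control (SD, n = 3 each).

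In a fit over all transcripts, added after the data were seen, the short form's log2 change relative to the median transcript was -2.80 (SE 0.23, limma adjusted p = 4.85e-05) at 8 weeks and -3.04 (SE 0.23, limma adjusted p = 2.63e-05) at 12 weeks. For the long form it was -0.54 (SE 0.17, limma adjusted p = 0.0438) at 8 weeks and -0.39 (SE 0.17, limma adjusted p = 0.0738) at 12 weeks. The difference between the forms' changes was not tested. In ESS against control the short form's relative change was 0.054 (SE 0.23, limma adjusted p = 0.996). Of the carriers' transcripts 7.54% were called at 8 weeks and 9.13% at 12 weeks, beside 8.71% and 11.2% of all transcripts. The gene value is not the sum of the transcript values, and no label says how reads were divided between transcripts.

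**Figure D3:**
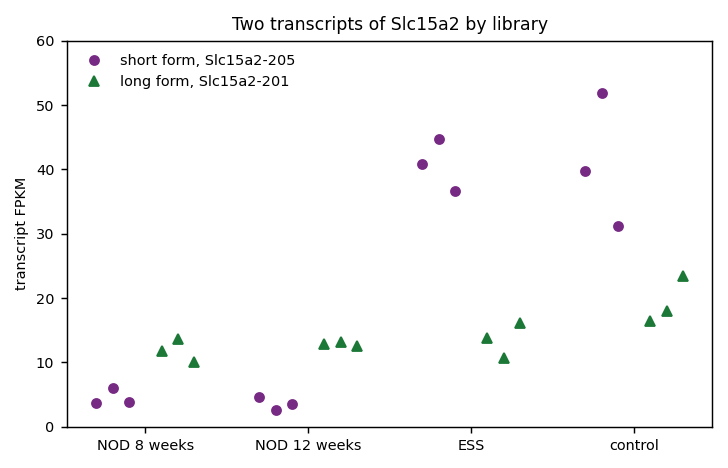
FPKM (y axis) of the short form Slc15a2-205 (circles) and the long form Slc15a2-201 (triangles) in each library of the 4 groups. The short form lies at 2.59 to 6.06 FPKM in the NOD libraries and at 31.2 to 51.9 FPKM in the ESS and control libraries.

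Slc38a2, which takes up glutamine and alanine with sodium, had 14.8, 16.4 and 12.8 FPKM in NOD at 8 weeks, 15.9, 15.2 and 13.5 FPKM in NOD at 12 weeks, 18.6, 26.6 and 23.9 FPKM in ESS and 27.2, 22.0 and 21.1 FPKM in control. NOD and control did not overlap, and Slc38a2 fell by 0.49 (SE 0.14, limma adjusted p = 0.00647) at 8 weeks and by 0.43 (SE 0.14, limma adjusted p = 0.00678) at 12 weeks. Slc6a14, which carries neutral and cationic amino acids, averaged 2.96 ± 0.640 FPKM in NOD at 8 weeks and 5.35 ± 1.09 FPKM in control and fell by 0.53 (SE 0.15, limma adjusted p = 0.00732). Slc6a20a, a proline carrier, had 3.58, 3.01 and 1.77 FPKM in NOD at 8 weeks, 2.75, 3.21 and 2.83 FPKM in NOD at 12 weeks, 2.91, 3.38 and 3.22 FPKM in ESS and 5.06, 5.03 and 4.84 FPKM in control. Its control libraries stood above all others, and it fell by 0.55 (SE 0.15, limma adjusted p = 0.00624) at 8 weeks and by 0.42 (SE 0.15, limma adjusted p = 0.0106) at 12 weeks. At 12 weeks the falls of these 3 did not hold under all scalings.

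The 2 members of this role called higher at 12 weeks were Slc7a8 and Slc38a10. Slc7a8, a light chain for neutral amino acids, had 3.32, 2.07 and 1.82 FPKM in NOD at 12 weeks and 1.35, 1.54 and 1.39 FPKM in control, a rise of 0.65 (SE 0.15, limma adjusted p = 0.0348). Slc38a10 averaged 33.6 ± 5.54 FPKM in NOD at 8 weeks, 37.6 ± 4.46 FPKM in NOD at 12 weeks and 28.1 ± 2.08 FPKM in control and rose by 0.59 (SE 0.13, limma adjusted p = 0.0348) at 12 weeks. At 12 weeks against 8 weeks the limma adjusted p was 0.366 for Slc7a8 and 0.784 for Slc38a10. Slc1a5, the glutamine exchanger, was called lower at both ages, but with transcript values summed its log2 change was 0.47 at 8 weeks and 0.14 at 12 weeks, neither of them past the test.

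Of the 8 monocarboxylate and dicarboxylate carriers, 0 were higher and 4 lower at each NOD age, 2 of them at each age under all scalings. Slc16a13 had 8.10, 8.39 and 6.07 FPKM in NOD at 8 weeks, 6.86, 7.34 and 6.82 FPKM in NOD at 12 weeks, 12.5, 8.97 and 6.95 FPKM in ESS and 15.6, 12.8 and 19.1 FPKM in control. NOD and control did not overlap. Between them lay ESS libraries 1 and 2, which held the salivary gland transcripts, while ESS library 3 lay within the range of NOD. It fell by 0.83 (SE 0.19, limma adjusted p = 0.00295) at 8 weeks and by 0.87 (SE 0.19, limma adjusted p = 0.00158) at 12 weeks. On chromosome 11, Slc16a11 lies on the opposite strand and its end is 372 bases from the end of Slc16a13. It averaged 2.54 ± 0.752 FPKM in NOD at 12 weeks and 5.52 ± 1.47 FPKM in control and fell by 0.70 (SE 0.23, limma adjusted p = 0.014), though not under all scalings.

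Slc16a12, which carries creatine, had 4.81, 4.69 and 4.98 FPKM in NOD at 8 weeks, 4.37, 3.17 and 3.20 FPKM in NOD at 12 weeks, 7.35, 4.64 and 3.09 FPKM in ESS and 7.14, 12.1 and 7.52 FPKM in control. It fell by 0.91 (SE 0.24, limma adjusted p = 0.00516) at 12 weeks, while its call at 8 weeks ended under 11 of 24 alternatives. Slc16a6 had 7.68, 7.19 and 8.33 FPKM in NOD at 8 weeks, 13.5, 11.5 and 10.3 FPKM in NOD at 12 weeks, 10.6, 16.0 and 12.9 FPKM in ESS and 14.6, 12.0 and 13.1 FPKM in control. It was low at 8 weeks alone, where it fell by 0.56 (SE 0.14, limma adjusted p = 0.00351), but 12 weeks against 8 weeks did not pass the test (limma adjusted p = 0.232). Slc16a1, the widespread lactate carrier MCT1, had 1.47, 1.42 and 1.31 FPKM in NOD at 8 weeks, 1.99, 1.40 and 1.42 FPKM in NOD at 12 weeks, 2.00, 4.04 and 4.13 FPKM in ESS and 5.54, 1.65 and 6.40 FPKM in control. Control library 2 lay within the range of NOD at 12 weeks, and the limma adjusted p of Slc16a1 ranged over 0.000469 to 0.106 at 8 weeks and 0.00073 to 0.143 at 12 weeks across the alternatives.

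Among the 12 glucose and sugar carriers, 1 was higher and 3 lower at 8 weeks, and 0 were higher and 4 lower at 12 weeks. Under all scalings 1 of the falls held at each age. Slc50a1, the mammalian member of a family of sugar efflux carriers, showed the largest relative fall of all called carriers at both ages. It had 13.2, 11.5 and 13.3 FPKM in NOD at 8 weeks, 13.9, 11.8 and 12.3 FPKM in NOD at 12 weeks, 19.2, 16.7 and 18.8 FPKM in ESS and 25.0, 36.9 and 40.5 FPKM in control. The ESS libraries lay between NOD and control without overlap. Slc50a1 fell by 1.19 (SE 0.15, limma adjusted p = 7.25e-05) at 8 weeks and by 1.16 (SE 0.15, limma adjusted p = 6.55e-05) at 12 weeks. Slc2a5, the fructose carrier, moved the other way, with 60.9, 61.8 and 50.2 FPKM in NOD at 8 weeks, 53.8, 50.2 and 48.0 FPKM in NOD at 12 weeks, 41.0, 51.2 and 47.5 FPKM in ESS and 43.7, 38.1 and 44.4 FPKM in control. It rose by 0.59 (SE 0.11, limma adjusted p = 0.0113) at 8 weeks, and at 12 weeks its limma adjusted p was 0.0826. Slc5a8, of the sodium-glucose family but a carrier of short monocarboxylates, averaged 21.9 ± 3.65 FPKM at 8 weeks, 22.2 ± 1.47 FPKM at 12 weeks and 28.0 ± 1.68 FPKM in control, and its falls did not hold under all scalings.

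Metal carriers split both ways, with 3 of 22 higher and 3 lower at 8 weeks and 2 higher and 4 lower at 12 weeks, around medians of 0.19 and 0.22. Under all scalings 2 of the falls held at 8 weeks and 3 at 12 weeks. Slc31a1, the high-affinity copper uptake carrier, had 23.6, 26.4 and 21.1 FPKM in NOD at 8 weeks, 29.7, 26.8 and 26.0 FPKM in NOD at 12 weeks, 18.6, 18.0 and 17.0 FPKM in ESS and 16.3, 19.4 and 6.35 FPKM in control. Every NOD library was above control, where library 3 was low. It rose by 0.98 (SE 0.28, limma adjusted p = 0.046) at 8 weeks, a call that 14 of 24 alternatives ended, and by 1.23 (SE 0.28, limma adjusted p = 0.0146) at 12 weeks. Slc30a4, which moves zinc into vesicles, had 29.4, 30.7 and 24.5 FPKM in NOD at 8 weeks, 24.0, 24.6 and 20.9 FPKM in NOD at 12 weeks, 15.1, 16.5 and 13.3 FPKM in ESS and 17.2, 22.2 and 15.1 FPKM in control. It rose by 0.76 (SE 0.14, limma adjusted p = 0.00685) at 8 weeks, and at 12 weeks, where NOD and control overlapped, its limma adjusted p was 0.0746. Slc30a6, another zinc carrier, averaged 12.4 ± 0.478 FPKM at 8 weeks and 10.2 ± 0.653 FPKM in control and rose by 0.42 (SE 0.078, limma adjusted p = 0.0239).

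Slc48a1, which moves heme out of lysosomes, had 34.8, 36.3 and 28.7 FPKM in NOD at 8 weeks, 37.8, 34.8 and 33.0 FPKM in NOD at 12 weeks, 62.9, 56.9 and 56.6 FPKM in ESS and 52.3, 52.1 and 49.4 FPKM in control. NOD lay below both other groups, and Slc48a1 fell by 0.47 (SE 0.10, limma adjusted p = 0.00079) at 8 weeks and by 0.35 (SE 0.10, limma adjusted p = 0.00175) at 12 weeks. Slc11a2, the proton-coupled iron carrier DMT1, had 3.98, 3.96 and 3.40 FPKM in NOD at 8 weeks, 4.75, 3.07 and 3.57 FPKM in NOD at 12 weeks, 6.01, 6.19 and 5.34 FPKM in ESS and 6.20, 7.63 and 5.44 FPKM in control, again without overlap between NOD and the others. It fell by 0.48 (SE 0.14, limma adjusted p = 0.00687) at 8 weeks and by 0.45 (SE 0.14, limma adjusted p = 0.00562) at 12 weeks. Slc11a1, its relative in the phagosomes of macrophages, averaged 0.319 ± 0.213 FPKM at 8 weeks, 0.361 ± 0.186 FPKM at 12 weeks, 1.39 ± 0.916 FPKM in ESS and 1.32 ± 0.482 FPKM in control. It passed the filter on level through ESS and control libraries alone, so no test of it is given. Of the 8 macrophage markers, 5 were called lower at each NOD age, and their part in the level of Slc11a1 was not tested.

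The magnesium carriers Slc41a1 and Slc41a2 moved in opposite directions at 12 weeks. Slc41a2 had 13.4, 15.2 and 13.2 FPKM in NOD at 8 weeks, 5.78, 6.91 and 5.35 FPKM in NOD at 12 weeks, 7.22, 7.71 and 6.96 FPKM in ESS and 8.83, 21.3 and 15.5 FPKM in control. It was low in NOD at 12 weeks and in ESS, while NOD at 8 weeks lay within the wide range of control. It fell by 0.95 (SE 0.22, limma adjusted p = 0.00285) at 12 weeks against control. Set against 8 weeks, the relative change at 12 weeks was -1.06 (SE 0.22, limma adjusted p = 0.121). The limma adjusted p was 0.00626 with the compared groups alone, 0.0101 without control replicate 1 and 0.0253 without control replicate 2. Slc41a1 averaged 18.1 ± 1.41 FPKM in NOD at 12 weeks and 13.4 ± 2.02 FPKM in control and rose by 0.60 (SE 0.14, limma adjusted p = 0.0395).

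Of the 13 vitamin, nucleoside, choline and phosphate carriers, 2 were higher and 4 lower at 8 weeks, and 1 was higher and 5 lower at 12 weeks. Under all scalings 1 of the falls held at 8 weeks and 2 at 12 weeks. Slc23a1, the sodium-coupled ascorbate carrier of epithelia and the most abundant of the role, had 67.7, 75.9 and 72.0 FPKM in NOD at 8 weeks, 79.5, 74.8 and 71.5 FPKM in NOD at 12 weeks, 41.2, 47.9 and 41.8 FPKM in ESS and 45.3, 41.7 and 54.4 FPKM in control. NOD stood above both other groups. Slc23a1 rose by 0.75 (SE 0.10, limma adjusted p = 0.00143) at 8 weeks and by 0.86 (SE 0.10, limma adjusted p = 0.000643) at 12 weeks. The other ascorbate carrier, Slc23a2, averaged 6.99 ± 0.878 FPKM in NOD at 12 weeks and 10.3 ± 1.53 FPKM in control, and its fall did not hold under all scalings. Slc44a3 had 1.78, 1.09 and 1.50 FPKM in NOD at 8 weeks, 1.06, 0.977 and 1.29 FPKM in NOD at 12 weeks, 2.97, 2.52 and 2.76 FPKM in ESS and 3.38, 4.00 and 3.13 FPKM in control. It was lowest in NOD and fell by 0.74 (SE 0.12, limma adjusted p = 0.000354) at 8 weeks and by 0.91 (SE 0.12, limma adjusted p = 6.63e-05) at 12 weeks. Its family member Slc44a2 had 9.29, 8.64 and 6.03 FPKM in NOD at 8 weeks and 4.68, 6.04 and 3.71 FPKM in control. The groups just overlapped, and Slc44a2 rose by 0.78 (SE 0.19, limma adjusted p = 0.0279). The riboflavin carrier Slc52a2 averaged 2.32 ± 0.911 FPKM at 12 weeks and 4.20 ± 0.538 FPKM in control and fell by 0.50 (SE 0.16, limma adjusted p = 0.00825).

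Among the 26 carriers of the Golgi and ER, 3 were higher and 4 lower at 8 weeks, and 3 were higher and 2 lower at 12 weeks. Under all scalings 2 of the falls held at 8 weeks and 1 at 12 weeks. Slc37a1, an exchanger of glucose-6-phosphate and phosphate in the ER, had 6.02, 6.67 and 5.00 FPKM in NOD at 8 weeks, 6.73, 6.81 and 5.69 FPKM in NOD at 12 weeks, 3.43, 2.65 and 2.89 FPKM in ESS and 2.66, 2.05 and 2.56 FPKM in control. Every NOD library was above every other library. Slc37a1 rose by 1.15 (SE 0.12, limma adjusted p = 0.000135) at 8 weeks and by 1.30 (SE 0.12, limma adjusted p = 5.98e-05) at 12 weeks. Slc35f3 had 1.96, 3.01 and 1.90 FPKM in NOD at 8 weeks, 2.80, 3.06 and 2.74 FPKM in NOD at 12 weeks, 0.202, 0 and 0.314 FPKM in ESS and 0.121, 0.676 and 0.420 FPKM in control. It stayed below 1 FPKM outside NOD and so passed the filter on level through NOD libraries alone, and its higher level there is a description with no test. Slc35d2, a nucleotide sugar carrier, averaged 2.97 ± 0.337 FPKM at 8 weeks, 2.81 ± 0.502 FPKM at 12 weeks and 1.74 ± 0.342 FPKM in control, and rose by 0.68 (SE 0.14, limma adjusted p = 0.0126) at 8 weeks and by 0.66 (SE 0.14, limma adjusted p = 0.0197) at 12 weeks. Slc35e4 averaged 1.91 ± 0.205 FPKM at 8 weeks, 1.90 ± 0.187 FPKM at 12 weeks and 4.53 ± 1.02 FPKM in control and fell by 0.76 (SE 0.14, limma adjusted p = 0.000853) and by 0.73 (SE 0.14, limma adjusted p = 0.000733). The abundant Slc35f5, Slc35b1 and Slc35c2 did not pass the test at either age.

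Mitochondrial carriers form the largest role, which was assigned by family number and not by the site of each protein. Of 35, 1 was higher and 9 lower at 8 weeks, with 2 of the falls under all scalings, and 2 were higher and 13 lower at 12 weeks, with 3. Their medians of -0.022 and 0.00057 lay at the median of all genes. Slc25a29, which carries basic amino acids, had 21.1, 20.4 and 19.0 FPKM in NOD at 8 weeks, 23.1, 22.2 and 21.5 FPKM in NOD at 12 weeks, 13.7, 14.5 and 14.6 FPKM in ESS and 10.8, 11.2 and 10.5 FPKM in control. No group overlapped another, with ESS between NOD and control. Slc25a29 rose by 0.98 (SE 0.075, limma adjusted p = 1.18e-05) at 8 weeks and by 1.16 (SE 0.075, limma adjusted p = 3.29e-06) at 12 weeks. Slc25a33, a pyrimidine nucleotide carrier, had 8.20, 7.60 and 7.57 FPKM in NOD at 8 weeks, 4.21, 4.98 and 5.63 FPKM in NOD at 12 weeks, 6.83, 10.2 and 8.84 FPKM in ESS and 10.2, 13.3 and 11.3 FPKM in control. It was lowest at 12 weeks, where it fell by 0.90 (SE 0.14, limma adjusted p = 0.000201), and 12 weeks against 8 weeks gave a limma adjusted p of 0.223. Slc25a12, an exchanger of aspartate and glutamate, is named after its values were seen, as a fall that held under all scalings at both ages, with 5.11 ± 0.768 FPKM at 8 weeks, 5.18 ± 0.105 FPKM at 12 weeks and 8.59 ± 1.02 FPKM in control.

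Of the 16 bicarbonate, proton and chloride carriers, 1 was higher and 2 lower at 8 weeks, and 2 were higher and 2 lower at 12 weeks. None of these falls held under all scalings at either age. Slc26a2, the sulfate carrier, had 7.08, 6.67 and 6.84 FPKM in NOD at 12 weeks and 4.21, 5.82 and 4.53 FPKM in control and rose by 0.62 (SE 0.12, limma adjusted p = 0.0148). Slc12a1, a sodium, potassium and chloride carrier known from the kidney, is named after its values were seen because it and Slc35f3 alone reached 1 FPKM in NOD libraries only. It had 1.70, 1.77 and 0.772 FPKM in NOD at 8 weeks, 1.72, 1.93 and 2.05 FPKM in NOD at 12 weeks, 0.363, 0.666 and 0.596 FPKM in ESS and 0.408, 0.0470 and 0.164 FPKM in control. It passed the filter on level through NOD libraries alone, so its higher level in NOD is a description and no test of it is given. Conversely, 6 carriers reached 1 FPKM in ESS and control libraries but in no NOD library, among them Slc11a1 and Slc22a15 and, named after their values were seen, Slc12a8, Slc25a30 and Slc25a45.

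The remaining roles are small. Slc17a5, or sialin, which exports sialic acid from lysosomes, had 41.0, 41.4 and 35.7 FPKM in NOD at 8 weeks, 39.3, 36.6 and 35.4 FPKM in NOD at 12 weeks, 26.1, 25.8 and 24.5 FPKM in ESS and 23.4, 25.7 and 23.9 FPKM in control. NOD lay above both other groups. Slc17a5 rose by 0.81 (SE 0.082, limma adjusted p = 0.000135) at 8 weeks and by 0.77 (SE 0.082, limma adjusted p = 0.000331) at 12 weeks. Of the 9 organic ion and bile acid carriers, 0 were higher and 2 lower at 8 weeks, and 1 was higher and 2 lower at 12 weeks. Slc22a17, a receptor for lipocalin 2, had 2.66, 3.00 and 2.02 FPKM in NOD at 8 weeks, 2.13, 2.27 and 2.10 FPKM in NOD at 12 weeks, 4.88, 5.59 and 3.84 FPKM in ESS and 3.50, 4.88 and 6.82 FPKM in control. It fell by 0.60 (SE 0.19, limma adjusted p = 0.0122) at 8 weeks and by 0.72 (SE 0.19, limma adjusted p = 0.00376) at 12 weeks, calls that were lost with transcript values summed. Slc22a18 averaged 21.4 ± 3.04 FPKM in NOD at 12 weeks and 17.4 ± 0.797 FPKM in control, and 14 of 24 alternatives ended its call. None of the 3 fatty acid carriers was called by limma at either age, and Slc27a2 had 32.4, 34.2 and 33.2 FPKM in NOD at 12 weeks and 23.8, 10.1 and 29.5 FPKM in control (limma adjusted p = 0.0743). Slc8b1, the mitochondrial exporter of calcium, averaged 1.63 ± 0.0529 FPKM at 8 weeks, 1.73 ± 0.340 FPKM at 12 weeks and 2.65 ± 0.493 FPKM in control, and its falls did not hold under all scalings. Another 4 members bear a carrier's name without being carriers. Of these the scaffold Slc9a3r1 averaged 59.8 ± 3.08 FPKM in NOD at 12 weeks and 50.6 ± 2.84 FPKM in control and rose by 0.42 (SE 0.081, limma adjusted p = 0.0412).

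**Figure D4:**
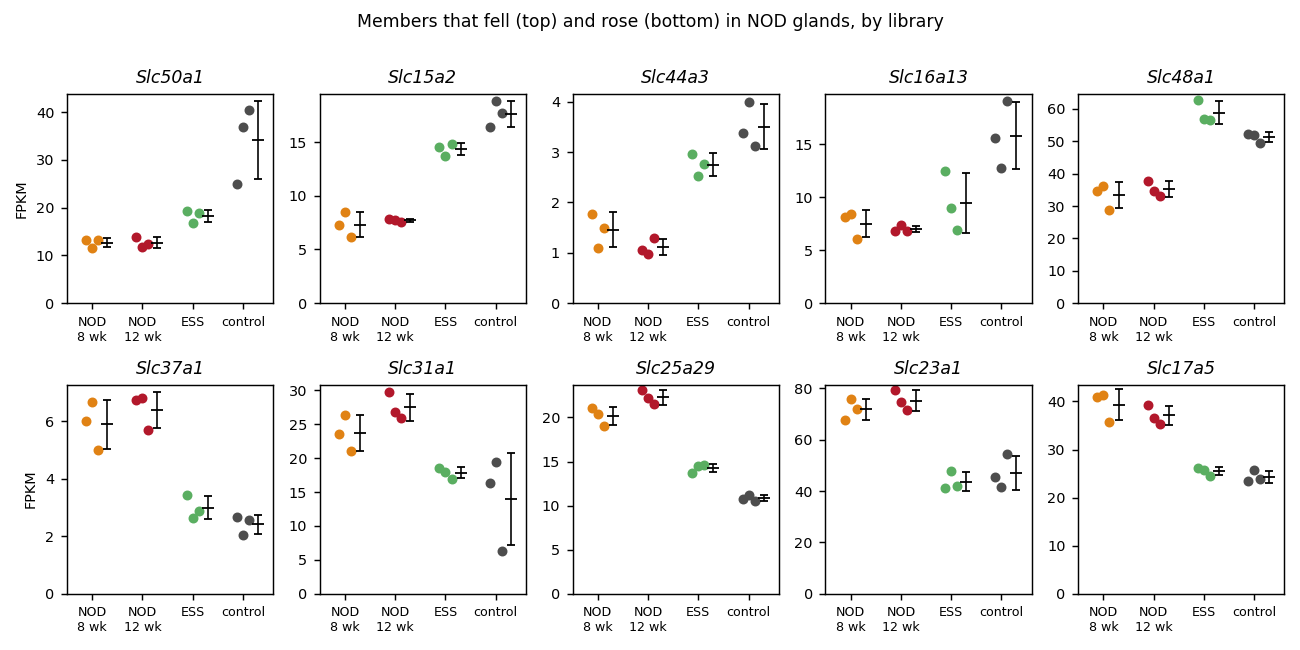
FPKM (y axis, from 0) in every library of 5 carriers that fell in NOD (top row) and 5 that rose (bottom row), with a point per library and the mean ± SD of the 3 libraries of each group. The NOD libraries of Slc15a2 lie at 6.20 to 8.49 FPKM and all others at 13.7 to 18.8 FPKM, and those of Slc17a5 lie at 35.4 to 41.4 FPKM and all others at 23.4 to 26.1 FPKM.

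The 250 bases before the start of 4 genes follow from RefSeq for GRCm38.p6, with matches to a searched motif in capitals. They are shown because Slc50a1 and Slc15a2 fell and Slc37a1 rose at both NOD ages, and because Slc35f3 reached 1 FPKM in NOD libraries alone.
Slc50a1, chr3:89270571-89270820, minus strand: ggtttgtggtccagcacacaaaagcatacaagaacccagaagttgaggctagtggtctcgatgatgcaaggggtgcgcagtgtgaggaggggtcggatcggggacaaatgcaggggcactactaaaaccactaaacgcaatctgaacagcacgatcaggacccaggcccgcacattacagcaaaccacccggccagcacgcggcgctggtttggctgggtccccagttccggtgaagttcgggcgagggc
Slc15a2, chr16:36784963-36785212, minus strand: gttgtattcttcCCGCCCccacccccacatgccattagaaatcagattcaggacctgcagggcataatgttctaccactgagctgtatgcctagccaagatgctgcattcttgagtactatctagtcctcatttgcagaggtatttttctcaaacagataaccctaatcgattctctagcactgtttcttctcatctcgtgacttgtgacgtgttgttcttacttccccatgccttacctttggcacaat
Slc37a1, chr17:31295974-31296223, plus strand: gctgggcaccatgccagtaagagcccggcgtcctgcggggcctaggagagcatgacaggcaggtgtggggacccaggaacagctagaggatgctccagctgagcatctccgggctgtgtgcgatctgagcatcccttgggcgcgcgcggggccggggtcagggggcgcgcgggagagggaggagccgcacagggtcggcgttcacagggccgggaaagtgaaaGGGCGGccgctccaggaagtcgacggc
Slc35f3, chr8:126298329-126298578, plus strand: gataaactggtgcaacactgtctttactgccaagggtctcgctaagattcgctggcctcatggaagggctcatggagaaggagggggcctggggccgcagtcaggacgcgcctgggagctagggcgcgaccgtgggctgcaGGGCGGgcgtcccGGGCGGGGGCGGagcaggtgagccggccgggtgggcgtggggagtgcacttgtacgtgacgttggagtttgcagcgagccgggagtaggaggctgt

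The motifs searched on both strands were the GC box (GGGCGG), the CCAAT box (CCAAT), the TATA box (TATAAA), the E-box (CACGTG) and the AP-1 motif (TGANTCA). Slc35f3 held 3 GC boxes, Slc15a2 and Slc37a1 held 1 each, and Slc50a1 held none of the motifs in this window. No match in these windows overlapped another. Of the carriers, 135 matched an entry of the RefSeq table. A GC box stood in 63.5% of their 181 windows and in 42.6% of all 21263 windows of protein-coding genes. Those genes, unlike the carriers, were not filtered on level in the gland. Differences in the shares of any motif are therefore not read as a trait of carriers. The shares of carriers' and of all windows were 30.9% and 35.4% for the CCAAT box, 4.42% and 11.6% for the TATA box, 10.5% and 6.63% for the E-box and 4.42% and 6.13% for the AP-1 motif. These matches describe the letters and are not evidence of binding.

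Among the 74 carriers with 2 or more listed transcripts, 7 had a different leading transcript in control and at both NOD ages with 1 FPKM reached by each. The share among all genes was not computed, so this count shows nothing about carriers as a class. Besides Slc15a2 these were Slc35c2, Slc16a7, Slc35b3, Slc7a4, Slc29a1 and Slc5a9. No leading transcript of Slc35c2, Slc16a7, Slc35b3, Slc29a1 or Slc5a9 passed limma's test at either NOD age against control. The leading transcript of Slc29a1 also differed between the NOD ages. Slc7a4-207 had 1.21, 1.92 and 3.29 FPKM in NOD at 8 weeks, 2.44, 1.69 and 1.98 FPKM in NOD at 12 weeks and 5.44, 3.65 and 11.6 FPKM in control, and its relative change was -1.15 (SE 0.35, limma adjusted p = 0.0563) at 8 weeks and -1.11 (SE 0.35, limma adjusted p = 0.0472) at 12 weeks. Slc35c2-201 had 42.7, 39.0 and 26.9 FPKM in NOD at 8 weeks and 0, 18.8 and 25.2 FPKM in control, with a limma adjusted p of 0.393. Slc39a9, a zinc carrier named after its values were seen, varied within every group, with 3.08, 16.6 and 11.7 FPKM in NOD at 8 weeks, 16.1, 2.70 and 2.37 FPKM in NOD at 12 weeks, 2.27, 13.8 and 12.2 FPKM in ESS and 1.80, 1.57 and 9.75 FPKM in control, so no group level is read for it.

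Within NOD, 1 carrier passed the test at 12 weeks against 8 weeks, where 0.126% of all genes did. Slc25a35, a mitochondrial carrier, had 17.3, 20.1 and 22.3 FPKM at 12 weeks and 12.9, 12.2 and 10.8 FPKM at 8 weeks, beside 13.0, 14.7 and 15.8 FPKM in ESS and 12.1, 13.5 and 11.9 FPKM in control. The 12-week libraries were above all others. The relative change was 0.72 (SE 0.11, limma adjusted p = 0.04), and the call ended under 14 of 24 alternatives, with an adjusted p of 0.0323 to 0.172. Against control Slc25a35 rose at 12 weeks by 0.81 (SE 0.11, limma adjusted p = 0.00149).

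In ESS against control, 0 carriers passed limma's test, beside 0.165% of all genes. At an unadjusted p of 0.05 there were 26 carriers, or 14.6%, beside 12.1% of all genes. The groups did not overlap for 32 carriers, or 18.0%, beside 18.2% of all genes. The smallest p was that of Slc50a1, with means of 18.2 ± 1.33 FPKM in ESS and 34.2 ± 8.13 FPKM in control and a relative change of -0.79 (SE 0.15, limma adjusted p = 0.0573). Its adjusted p ranged over 0.00343 to 0.464 across the alternatives, and it passed without control replicate 1, after rescaling without abundant genes, with no filter and with a pseudocount of 5 FPKM. Slc25a29 followed, with 14.3 ± 0.521 FPKM in ESS, 10.9 ± 0.365 FPKM in control and a relative change of 0.42 (SE 0.075, limma adjusted p = 0.0749), and it passed after quantile normalization (limma adjusted p = 0.0374) and with medians centred (limma adjusted p = 0.0264). Slc41a2 had a limma adjusted p of 0.133, Slc16a13 of 0.159 and Slc6a20a of 0.192. All 3 had lower means in ESS, Slc41a2 passed without control replicate 1 (limma adjusted p = 0.00663), and Slc6a20a passed without NOD 8 weeks replicate 3 (limma adjusted p = 0.0499). Without both ESS libraries with salivary transcripts, the creatine carrier Slc6a8, named after its values were seen, had a log2 change of -0.97. That value rests on 1 ESS library.

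ESS differed from NOD in more carriers. Against NOD at 8 weeks, 20 carriers were higher and 13 lower in ESS, or 18.5%, beside 15.2% of all genes (11.3% higher and 3.94% lower). Against NOD at 12 weeks, 24 were higher and 14 lower, or 21.3%, beside 20.6% of all genes (16.2% higher and 4.44% lower). After quantile normalization the split was 14 higher and 21 lower against 8 weeks and 12 higher and 25 lower against 12 weeks. Of all genes 821 were then higher and 759 lower against 8 weeks, and 905 and 900 against 12 weeks. Fewer carriers were called without both ESS libraries with salivary transcripts, which leaves only ESS library 3. The relative log2 change of Slc15a2 in ESS was 0.80 against 8 weeks (limma adjusted p = 0.000102) and 0.69 against 12 weeks (limma adjusted p = 0.000198). That of Slc48a1 was 0.72 and 0.60, that of Slc44a3 0.53 and 0.71, and that of the phosphate carrier Slc20a2 0.61 and 0.59. Among the lower carriers, the changes were -0.88 and -1.02 for Slc37a1, -0.80 and -0.90 for Slc23a1, and -0.70 and -0.65 for Slc17a5. The calls of Slc15a2, Slc48a1, Slc37a1, Slc23a1 and Slc17a5 held under every alternative run. These comparisons share the NOD libraries with those against control.

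Genes that work with carriers came from a list of 36, of which 29 had values and 26 were tested. Of these, 0 were higher and 8 lower in NOD at 8 weeks and 0 were higher and 13 lower at 12 weeks, with medians of -0.091 and -0.15 relative to all genes. Of all genes 22.1% were lower at 8 weeks and 27.8% at 12 weeks. Under all 4 scalings 7 partner genes were lower at 8 weeks and 8 at 12 weeks, beside 11.0% of all genes at each age. In ESS against control limma called 0 of them. Fxyd3, a small regulator of the sodium pump, had 7.07, 5.82 and 5.62 FPKM in NOD at 8 weeks, 5.90, 4.97 and 5.17 FPKM in NOD at 12 weeks, 35.5, 22.1 and 30.8 FPKM in ESS and 34.6, 34.7 and 42.6 FPKM in control. Every NOD library was far below the lowest ESS or control library (relative change -2.41, limma adjusted p = 4.72e-07). Emb, a chaperone of monocarboxylate carriers, had 6.29, 6.27 and 4.54 FPKM in NOD at 8 weeks, 5.18, 4.55 and 5.46 FPKM in NOD at 12 weeks, 11.7, 10.3 and 11.2 FPKM in ESS and 10.8, 11.1 and 11.9 FPKM in control. It too was lower in NOD than in both other groups (relative change -0.83, limma adjusted p = 7.05e-05). The carbonic anhydrase Car12 averaged 3.99 ± 0.250 FPKM at 8 weeks, 3.77 ± 0.0605 FPKM at 12 weeks and 7.77 ± 0.160 FPKM in control (relative change -0.69, limma adjusted p = 3.65e-05). Mpc2, of the mitochondrial pyruvate carrier, averaged 7.37 ± 0.621 FPKM at 8 weeks, 6.15 ± 0.310 FPKM at 12 weeks and 10.8 ± 1.82 FPKM in control (relative change -0.53, limma adjusted p = 0.000644). The changes in brackets are those of NOD at 12 weeks against control.

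Organic anion carriers named Slco fall outside the symbol rule. Of 4 tested, 1 was higher and 1 lower at 8 weeks and 1 was higher at 12 weeks. Slco1a6 had 17.8, 19.0 and 13.0 FPKM in NOD at 8 weeks, 15.3, 13.8 and 12.0 FPKM in NOD at 12 weeks, 6.40, 6.48 and 5.62 FPKM in ESS and 4.69, 6.66 and 3.66 FPKM in control. NOD was above both other groups, with a relative change of 1.71 at 8 weeks (limma adjusted p = 8.1e-05) and 1.50 at 12 weeks (limma adjusted p = 0.000276). Slco1a5 averaged 4.48 ± 0.671 FPKM at 8 weeks, 4.79 ± 0.255 FPKM at 12 weeks and 3.89 ± 1.56 FPKM in control, and was not called at either age.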

How the data were processed

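RNA was extracted with Trizol and a stranded KAPA kit was used, per the labels' protocols. The authors deposited FPKM values per gene and per transcript for 12 libraries. The genome build was GRCm38, per the submitters' processing notes, and no aligner or counter is named in the sources used here. Sequencing depth is unknown, since low values did not resolve into whole reads. Genes with at least 1 FPKM in 3 libraries were tested on log2(FPKM + 1) by limma 3.58.1 (R 4.3.3), with 4 group means over all 12 libraries, a mean trend and Benjamini-Hochberg adjustment over 10325 genes. The fit was tested on simulated data. Tables and figures used Python 3.11.15, pandas 2.3.3 and matplotlib 3.10.9. Roles follow the family number, with single exceptions. The members, roles and lists were chosen with earlier results of these data known. Named genes were called members with non-overlapping groups and at least 2 FPKM in the higher group (the 12 largest rises and falls at each NOD age, the 8 largest elsewhere), the 3 most abundant of each role, those at the filter, those with a changed leading transcript, and the 4 partner and 4 Slco genes with the smallest adjusted p. In ESS against control, the 5 smallest p were named. Replicate numbers did not pair libraries. Some genes and a sequence are not reported here. Alternatives changed the scaling, pseudocount, filter, prior, samples and source of the gene value.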

Additional observations from a re-analysis of the deposited data

Results flagged for a closer look

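The change of Slc25a35 from control differed between the NOD ages. Its log2 change at 12 weeks against 8 weeks, which is the difference between the changes at both ages, was 0.69 (SE 0.11, limma adjusted p = 0.04). The call ended under 14 of 24 alternatives, with a limma adjusted p of 0.0323 to 0.172. The 3 libraries at 12 weeks were all above the 3 at 8 weeks. It was the only carrier past the threshold of the 178 tested in this comparison.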

How the results depend on the processing

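With a filter at 5 FPKM fewer carriers were tested, and limma called 28 in NOD at 8 weeks and 37 in NOD at 12 weeks against control, and in ESS 21 against NOD at 8 weeks and 23 against NOD at 12 weeks. The 1 call in NOD at 12 weeks against 8 weeks became 0 with medians centred, a pseudocount of 0.1 FPKM, the replicate block, rescaling without abundant genes, transcript values summed, and without both ESS libraries with salivary transcripts. With the compared groups alone, Slc41a2 passed at 12 weeks against 8 weeks and Slc25a35 did not. The 0 calls in ESS against control became 1 with medians centred, no filter, a pseudocount of 5 FPKM, quantile normalization and rescaling. Leaving out both those ESS libraries, a setting chosen after seeing the data, left 1 ESS library, so its calls in ESS are not counted. Leaving out 1 library at a time gave 35 to 49 calls in NOD at 8 weeks against control, 43 to 67 in NOD at 12 weeks against control, 0 to 2 in NOD at 12 weeks against 8 weeks, 0 to 2 in ESS against control, 17 to 35 in ESS against NOD at 8 weeks and 21 to 44 in ESS against NOD at 12 weeks. Slc1a5 reversed with transcript values summed, with log2 changes of 0.47 at 8 weeks and 0.14 at 12 weeks in place of -0.40 and -0.48, and the cause was not tested. Libraries with the same number did not deviate together, with correlations of -0.10 to 0.20, so the numbers are not taken as pairs. With the replicate block the calls were 52 and 62 in NOD at 8 and 12 weeks against control, 0 in NOD at 12 weeks against 8 weeks, 0 in ESS against control, and 33 and 39 in ESS against NOD at 8 and 12 weeks. Of 127 pairs of a named gene and a comparison, 51 were called under every alternative. With 3 libraries a group and depth unknown, small differences could be missed.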
